A study of Mus musculus with 8 samples.

Results

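Ubiquitin is attached to proteins by a relay of enzymes: an E1 activates it, an E2 conjugating enzyme carries it on a catalytic cysteine, and an E3 ligase brings the loaded E2 to the substrate. Most mouse E2 enzymes are encoded by genes named Ube2 followed by a letter. All symbols of this form in the deposited expression files were taken, except Ube2cbp, which encodes a binding protein of Ube2c, and this gave 34 of the 23235 gene symbols. CNOT4, the protein removed in the study, is a subunit of the CCR4-NOT complex with a RING domain that works as an E3 ligase with the E2 enzymes of the Ube2d family. In the testis the E2 family is known above all for Ube2b, without which male mice are infertile, and for the RAD6 type of E2 enzymes, which act on chromatin while the sex chromosomes are silenced in pachytene.

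The study sequenced RNA from spermatocytes of C57BL/6 male mice, 6 weeks old, sorted by flow cytometry after Hoechst and propidium iodide staining. The 4 groups come from 2 genotypes and 2 stages of meiotic prophase, leptotene with zygotene (LZ) and pachytene with diplotene (PD), with 2 libraries in each group and 8 in all. The wild type is called WT; the animals called Cnot4-null (labelled Cnot4-KO) were Cnot4 fl/fl;Stra8-Cre, in which Cre under the Stra8 promoter removes a Cnot4 exon in germ cells and leaves the gene intact in somatic cells. The labels describe libraries made from extracted total RNA, the methods describe amplified cDNA from small numbers of sorted cells, and which of these was used could not be determined. Values are FPKM, read fragments scaled by transcript length and by the number of mapped reads, so levels are scaled for transcript length. The files hold no read counts, so the depth behind each value is not known from them. Values are given below in the order replicate 1, replicate 2.

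Cnot4 itself stood at 36.0 and 34.9 FPKM (WT) and 43.2 and 34.6 (Cnot4-null) at LZ. At PD its level was 76.6 and 73.1 FPKM (WT) against 65.9 and 53.5 (Cnot4-null). The transcript was therefore still read in every Cnot4-null library, and FPKM over the whole gene does not check the deletion of an exon. The genotypes overlapped at LZ, and at PD both Cnot4-null libraries lay below both WT libraries (log2 -0.33, SE 0.20, adjusted p 0.192 in limma, not called as deposited). After rescaling (-1.75) and centring (-1.52) Cnot4 was called lower at PD, and without Cnot4-null PD replicate 2 the difference was -0.18.

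The Cnot4-null PD libraries stand apart from the other 6. They hold 13887 and 14249 genes above 1 FPKM, against 10103 and 10076 in the WT PD libraries and between 11538 and 11823 in the 4 LZ libraries. The median FPKM of the 15899 tested genes is 8.09 and 8.43 in the Cnot4-null PD libraries, 3.05 and 3.04 in WT PD, and 5.18 to 5.78 in LZ. Markers of other cells move with this difference. All 6 Leydig cell markers were called higher in Cnot4-null PD, and their summed FPKM was 10000 and 22200 there against 115 and 7.07 (WT) at PD, with 10.8 and 19.0 (Cnot4-null) against 16.8 and 9.89 (WT) at LZ. Insl3, the most abundant of them, made up 9670 and 21600 of these sums in Cnot4-null PD.

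The other marker lists of cells outside meiotic prophase were also higher in the Cnot4-null PD libraries than in WT PD. All 6 spermatid markers were called higher, with sums of 15800 and 7120 FPKM (Cnot4-null) against 417 and 260 (WT) at PD and 4030 and 708 (Cnot4-null) against 1830 and 1510 (WT) at LZ, led by Prm1. All 5 spermatogonium markers were called higher, with sums of 272 and 384 (Cnot4-null) against 14.0 and 8.13 (WT) at PD and 408 and 572 (Cnot4-null) against 637 and 612 (WT) at LZ, led by Uchl1. All 4 peritubular myoid markers were called higher, with sums of 61.6 and 279 (Cnot4-null) against 3.82 and 2.39 (WT) at PD and 3.26 and 1.73 (Cnot4-null) against 3.77 and 4.93 (WT) at LZ, led by Acta2. These sums do not overlap between the PD genotypes.

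Of the 6 macrophage markers 3 were called higher at PD, with sums of 24.3 and 108 FPKM (Cnot4-null) against 2.75 and 1.60 (WT) at PD and 12.1 and 2.51 (Cnot4-null) against 35.7 and 0.915 (WT) at LZ, led by Lyz2. Of the 5 Sertoli cell markers tested 3 were called higher, with sums of 99.9 and 205 (Cnot4-null) against 8.83 and 16.5 (WT) at PD and 6.62 and 10.1 (Cnot4-null) against 65.7 and 58.9 (WT) at LZ, led by Clu. Cdh5 was the only endothelial marker of 3 past the filter on low values and was called higher, and the endothelial sums were 1.54 and 5.59 (Cnot4-null) against 0.0677 and 0.116 (WT) at PD and 0.416 and 0.223 (Cnot4-null) against 0.272 and 0 (WT) at LZ. Defining markers near 0, at or below 0.1 FPKM in both WT PD libraries, were Hsd3b1, Amh, Csf1r, C1qa, Myh11, Cdh5 and Kdr, and Amh was at 0 in every library but Cnot4-null PD replicate 2, where it was 0.129.

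The spermatocyte lists were checked against the stage labels. The 7 pachytene to diplotene markers summed to 12000 and 11100 FPKM (WT) against 5480 and 1900 (Cnot4-null) at PD and 231 and 344 (WT) against 247 and 94.2 (Cnot4-null) at LZ, led by Ldhc, with 2 called lower and 0 higher between the PD genotypes in limma, where 4 of the 7 had an unadjusted p under 0.05. The 6 leptotene to zygotene markers, of which Sycp3 is the most abundant, summed to 1100 and 1350 (WT) against 2540 and 1390 (Cnot4-null) at LZ and 930 and 955 (WT) against 777 and 462 (Cnot4-null) at PD. Between the PD genotypes 4 of these 6 were called higher and 2, Spo11 and Sycp3, lower. Stra8 stood at 8.70 and 6.47 FPKM (WT) against 228 and 149 (Cnot4-null) at PD. Spo11 stood at 134 and 147 (WT) against 56.6 and 35.2 (Cnot4-null), and Sycp3 at 785 and 799 against 473 and 260. In WT LZ Spo11 was at 14.5 and 30.2, below its WT PD level, unlike the stage of its list. In sorted bulk samples fewer cells of a type and less RNA per cell cannot be told apart. The part of these markers in the E2 results at PD was not tested.

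**Figure D1:**
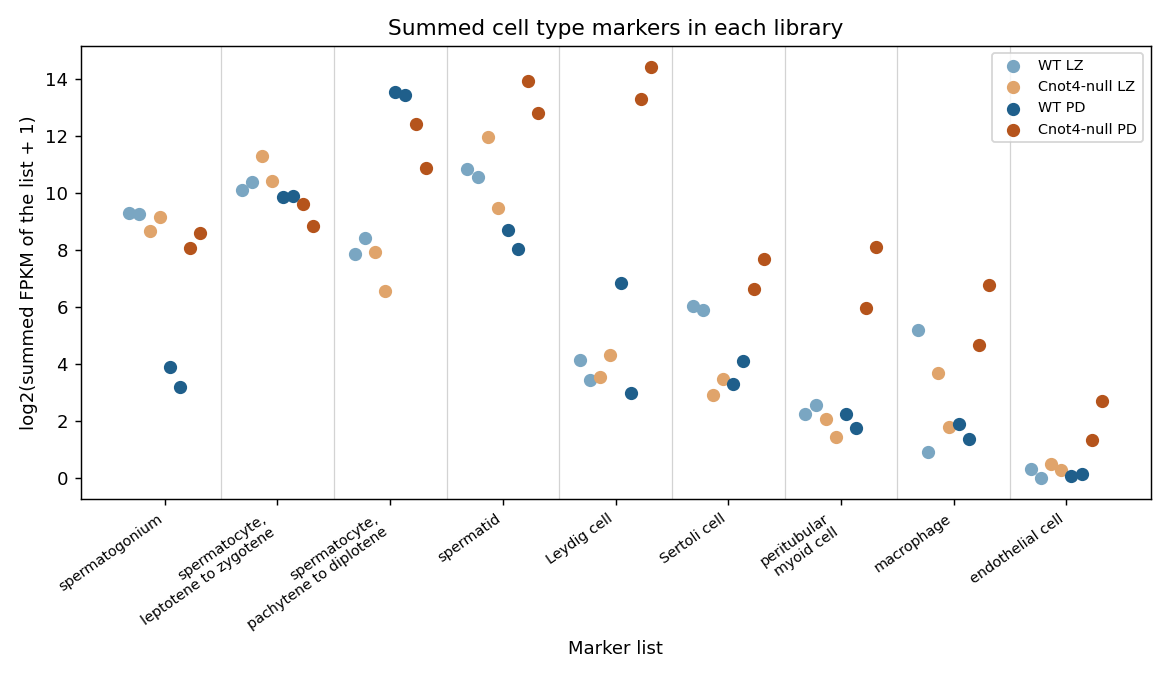
Summed FPKM of each cell type marker list (x axis) in each library, as log2 of the sum plus 1 (y axis), with 1 point per library coloured by group. The Leydig, peritubular myoid and spermatid points of Cnot4-null PD lie above those of all other groups, up to a summed FPKM of 22200 for the Leydig list.

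Together the E2 genes summed to 2526.9 and 2827.0 FPKM (WT) and 2917.9 and 2810.6 (Cnot4-null) at LZ, and to 2289.5 and 2398.2 (WT) against 2446.1 and 1844.2 (Cnot4-null) at PD. This is between 0.269% and 0.402% of all FPKM in a library. The highest mean level over the 8 libraries belonged to Ube2s, at 331 FPKM, followed by Ube2t at 254, Ube2d3 at 251 and Ube2c at 176. The order differs by library: Ube2d3 is first in both WT LZ libraries, Ube2c in both Cnot4-null LZ libraries, Ube2t in WT PD replicate 1 and Ube2s in the other 3, and Ube2c is 10 and 11 in rank in WT PD. Of these 4, Ube2c and Ube2s build chains with the anaphase-promoting complex and Ube2t serves the Fanconi anaemia repair pathway. Of the 34 genes 33 passed the filter of more than 1 FPKM in at least 1 library, and Ube2ql1, which did not exceed 0.626 FPKM in any library, was not tested.

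**Figure D2:**
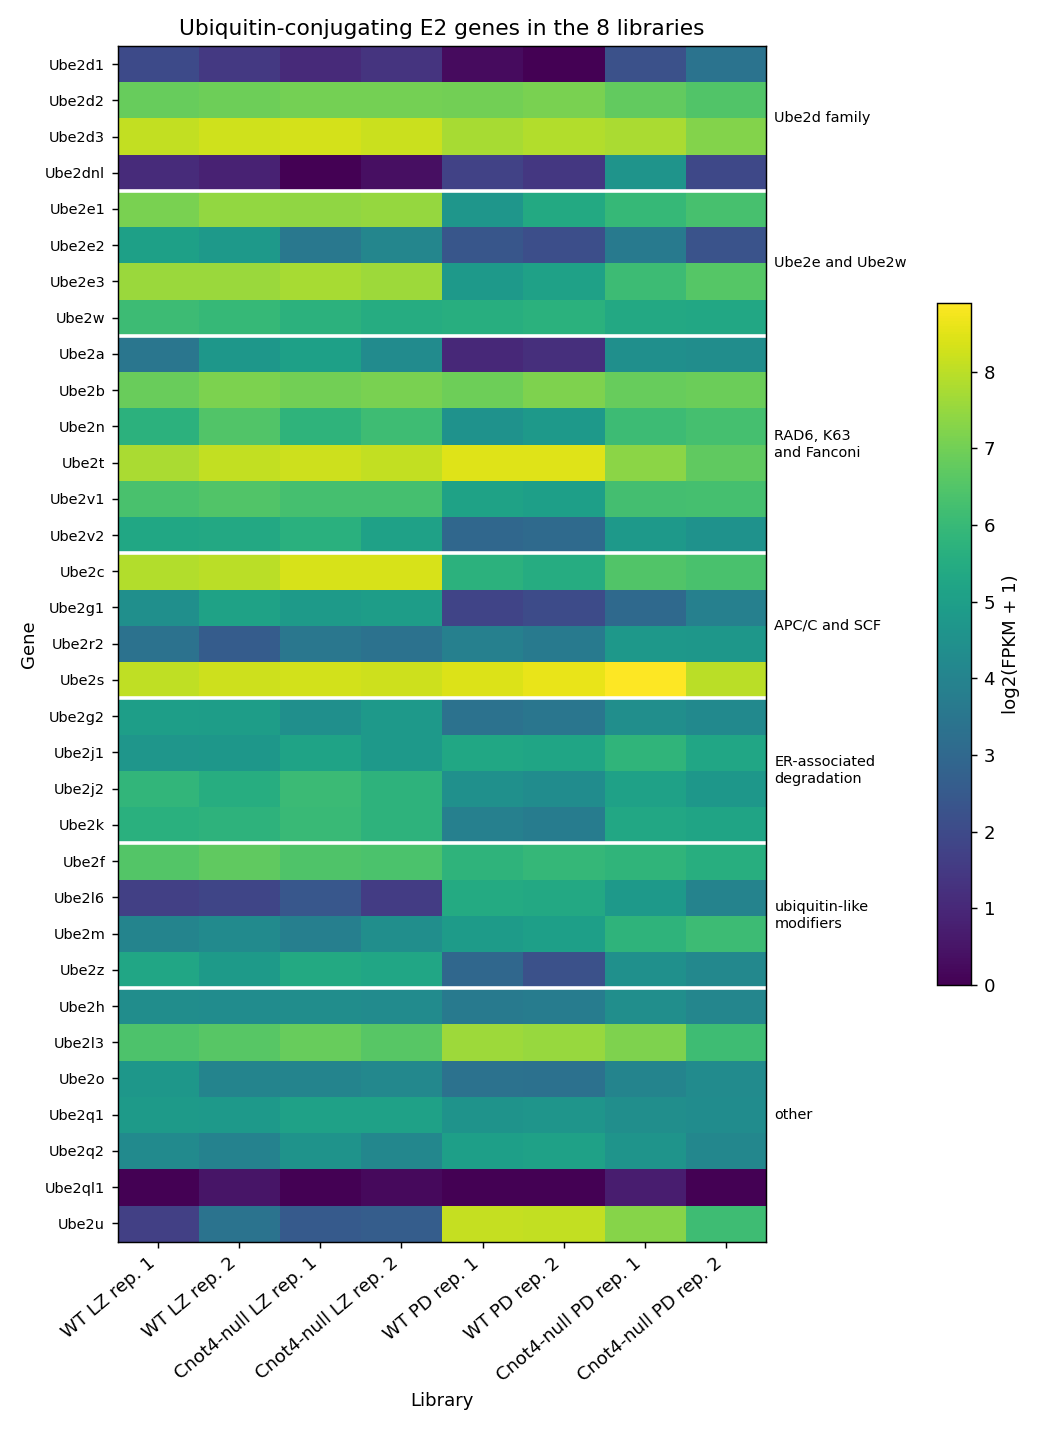
Level of 33 of the 34 E2 genes (y axis, grouped by role) in each library (x axis), as colour on the log2(FPKM + 1) scale. The WT PD columns are darker than all others for Ube2a, at 1.06 and 1.29 FPKM, and Ube2u is bright in WT PD, at 276 and 274 FPKM, and dark in LZ.

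Most E2 enzymes carry their modifier on a cysteine, and the bases around its codon show how close several Ube2d genes are to each other and how the pair Ube2a and Ube2b differs from them. The stretch of Ube2d2 is not shown. The stretches are coding sequence from GENCODE vM1 on NCBIM37 (mm9), with the cysteine codon in capitals, at codon 85 in Ube2d1, Ube2d3 and 1700013N18Rik, codon 93 in Ube2dnl and 4930524E20Rik, and codon 88 in Ube2a and Ube2b.
Ube2d1: ataaacagcaacgggagtattTGTcttgac
Ube2d3: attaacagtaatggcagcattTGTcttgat
1700013N18Rik: gttaacagtaacggcagtattTGTcttgat
Ube2dnl: attagcaaaaatggaagtatcTGTctagat
4930524E20Rik: attagcaaaaatggaagtatcTGTctagat
Ube2a: gtctatgcagatggtagtataTGTctggat
Ube2b: gtgtatgctgatggtagcataTGTttagat
Over these 30 bases Ube2d1 differs from Ube2d3 at 6 positions, 1700013N18Rik at 3, Ube2dnl and 4930524E20Rik at 7 each, Ube2a at 12 and Ube2b at 11. Ube2a and Ube2b differ from each other at 5 of the 30, and over the whole coding sequence they are 77.6% identical. The files use older symbols: 1700013N18Rik is Ube2d2b and 4930524E20Rik is Ube2dnl2 in RefSeq. Neither matches the naming rule, and they are shown beside the family because their coding bases are 92.6% identical to those of Ube2d2 and 94.7% to those of Ube2dnl.

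In the Ube2d family, Ube2d3 was the most abundant member in every library. It lies at chr3:135101261-135130142 and stood at 273 and 307 FPKM (WT) and 322 and 292 (Cnot4-null) at LZ, and at 215 and 232 (WT) against 217 and 150 (Cnot4-null) at PD. As deposited the PD libraries lie below the LZ libraries in both genotypes, and at PD the genotypes overlap. From LZ to PD in WT the change was not called (log2 -0.37). It was called lower after quantile normalization (-0.87), and its sign turned after rescaling (0.51) and centring (0.34). In Cnot4-null Ube2d3 was called lower in PD (log2 -0.76, SE 0.22, adjusted p 0.0274 in limma), a call that held in 11 of 18 alternatives. Between the genotypes at PD Ube2d3 was not called as deposited (log2 -0.30, SE 0.22, adjusted p 0.270), with a sign that turns to 0.01 under quantile normalization, but it was called lower after rescaling (-1.74), after centring and without Cnot4-null PD replicate 1 (-0.57). Without Cnot4-null PD replicate 2 the difference was -0.04. Ube2d2, the family's standard partner of RING ligases in vitro, stood at 114 and 123 FPKM (WT) and 131 and 131 (Cnot4-null) at LZ, and at 128 and 139 (WT) against 108 and 88.7 (Cnot4-null) at PD. Both Cnot4-null PD values are the lowest of the 8, and the difference at PD was not called (log2 -0.44, SE 0.18, adjusted p 0.0726), although relative to the median of all genes it is -1.11. It was called lower without a filter, after rescaling (-1.87), after centring (-1.64) and without Cnot4-null PD replicate 1 (-0.58).

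Ube2d1, which shares the broad partner range of the family, was far below Ube2d2 and Ube2d3. It lies at chr10:70717728-70748010 and stood at 3.04 and 1.80 FPKM (WT) and 1.08 and 1.56 (Cnot4-null) at LZ, and at 0.209 and 0 (WT) against 3.67 and 9.55 (Cnot4-null) at PD. It was near 0 in WT PD, and both Cnot4-null PD libraries were higher than any other library. Ube2d1 was called higher in Cnot4-null than in WT at PD (log2 2.67, SE 0.43, adjusted p 0.00234), 2.01 above the median of all genes. That call held under all 17 alternatives, with log2 values from 1.14 to 5.10. It was called lower in WT PD than in WT LZ (log2 -1.61, SE 0.43, adjusted p 0.0135) and higher in Cnot4-null PD than in Cnot4-null LZ (log2 1.60, SE 0.43, adjusted p 0.0191). The fall in WT was not called without WT LZ replicate 1 (log2 -1.35), WT PD replicate 1 (-1.75) or WT PD replicate 2 (-1.48), after centring (-0.90), with a pseudocount of 5 (-0.54) or without a filter. The rise in Cnot4-null was not called without Cnot4-null LZ replicate 1 (1.46) or replicate 2 (1.75), under any of the 3 other scalings, with a pseudocount of 0.1, without a filter or with the compared libraries alone.

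Ube2dnl, on the X chromosome at chrX:112018621-112019550, stood at 1.15 and 0.819 FPKM (WT) and 0 and 0.273 (Cnot4-null) at LZ, and at 2.38 and 1.74 (WT) against 23.3 and 2.81 (Cnot4-null) at PD. Only Cnot4-null PD replicate 1 is high. The genotype difference at PD was not called (log2 1.66, SE 0.75, adjusted p 0.0988) and without that library it was 0.32, whereas without Cnot4-null PD replicate 2 it was called (2.999). Between the stages in Cnot4-null it was called higher in PD (log2 3.09, SE 0.75, adjusted p 0.0138), a call that was lost without Cnot4-null LZ replicate 1 (2.92) or replicate 2 (3.27), after quantile normalization (2.34), without a filter and with the compared libraries alone, and without Cnot4-null PD replicate 1 the difference was 1.75. Its neighbour 4930524E20Rik, at chrX:112021191-112022119, stood at 0.289 and 0 FPKM (WT) and 0.309 and 0 (Cnot4-null) at LZ, and at 1.66 and 0.653 (WT) against 25.6 and 14.7 (Cnot4-null) at PD. Both Cnot4-null PD values are far above the rest, and the gene was called higher there than in WT PD (log2 3.29, SE 0.38, adjusted p 0.000677).

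The gene 1700013N18Rik behaved unlike the Ube2d genes of the naming rule. It lies at chr5:108259272-108260361 and stood at 3.21 and 20.7 FPKM (WT) and 7.76 and 0.900 (Cnot4-null) at LZ, and at 567 and 640 (WT) against 204 and 99.6 (Cnot4-null) at PD. The PD libraries are high in both genotypes, WT more than Cnot4-null, and in WT PD the gene exceeds each of the 34 E2 genes. It was called higher in PD than in LZ in WT (log2 5.98, SE 0.91, adjusted p 0.000993). The rise was 4.80 without WT LZ replicate 1 and 7.16 without WT LZ replicate 2. The genotype difference at PD was not called as deposited (log2 -2.07, SE 0.91, adjusted p 0.0901), but was called lower after rescaling and after centring (-3.27), with a pseudocount of 5 (-2.04) and with the compared libraries alone.

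As a share of the summed E2 FPKM the 4 Ube2d genes of the rule held 15.5% and 15.3% (WT) and 15.6% and 15.1% (Cnot4-null) at LZ, and 15.1% and 15.5% (WT) against 14.4% and 13.6% (Cnot4-null) at PD. The Cnot4-null PD shares are the lowest. Without the largest E2 gene they are 17.9% and 15.8% and overlap those of the other libraries, of which the lowest is 16.9% and the highest 18.6%. With 1700013N18Rik and 4930524E20Rik added, a choice made after seeing the data, the mean share was 15.7% in WT LZ, 32.7% in WT PD and 20.2% in Cnot4-null PD. The smallest two-sided p of an exact permutation test is 0.333 at this group size, so the shares are a description.

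**Figure D3:**
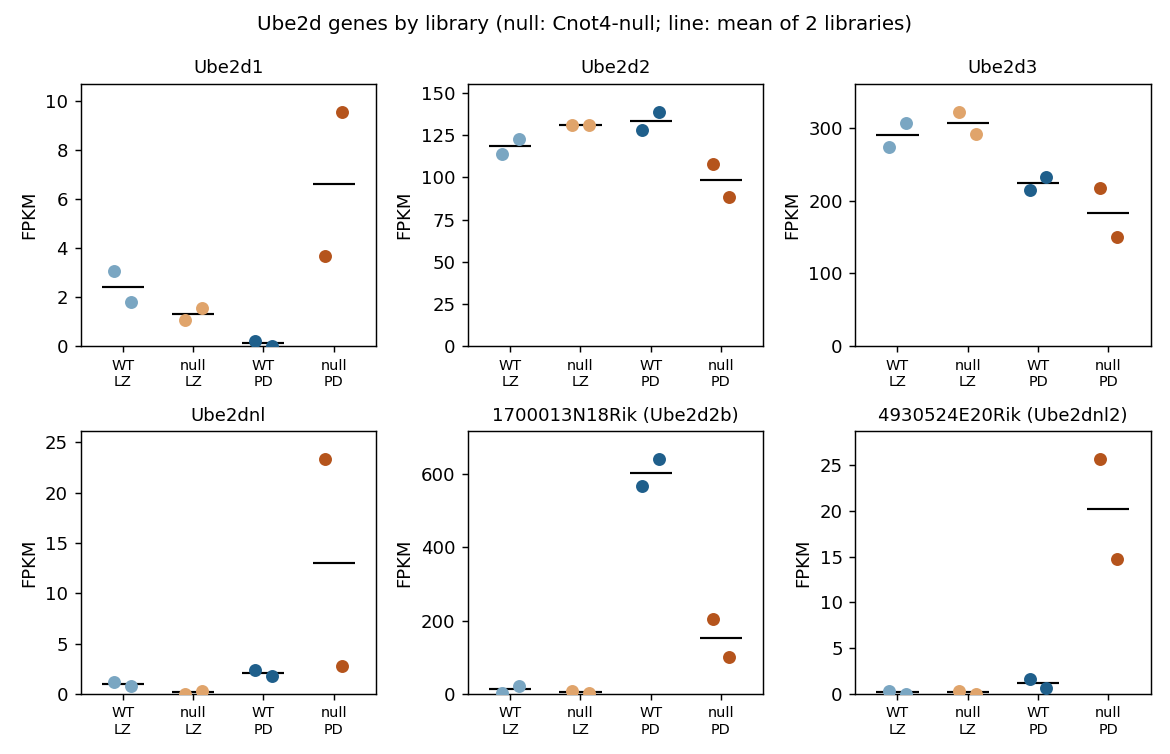
FPKM (y axis, from 0, scaled per gene) of the 4 Ube2d genes and of 1700013N18Rik and 4930524E20Rik in the 4 groups (x axis), with 1 point per library and a line at the mean of 2. Ube2d1 is at 0.209 and 0 (WT) against 3.67 and 9.55 (Cnot4-null) at PD, whereas Ube2d2 and Ube2d3 stay between 88.7 and 322 in all libraries.

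Across the whole family at PD, 16 of the 33 tested E2 genes were called higher in Cnot4-null and 1, Ube2t, lower. Called means an adjusted p under 0.05 in limma. The cell type markers above differ between the same libraries, and their part was not tested. Of all 15899 tested genes 41.6% were called higher and 11.5% lower, so the E2 share called higher, 48.5%, lies near the background. The median change was 0.72 over the E2 genes and 0.66 over all genes. In 18 E2 genes both Cnot4-null libraries lay above both WT libraries and in 9 below, against 58.2% and 23.1% of all genes. With the replicate number as a block in the fit 14 were called higher and 4 lower (40.6% and 11.5% of all genes). Without WT PD replicate 1 or without WT PD replicate 2 the count called higher was 9 each time (24.3% and 22.9% of all genes). The count called lower was 7 without Cnot4-null PD replicate 1 (18.1% of all genes) and 2, beside 9.52% to 10.1% of all genes, without any 1 of the 4 LZ libraries (WT LZ replicate 1, WT LZ replicate 2, Cnot4-null LZ replicate 1 or Cnot4-null LZ replicate 2).

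These directions at PD depend on how the libraries are scaled. The median change of all genes at PD was 0.66 as deposited, -0.11 after quantile normalization, -0.21 with the libraries rescaled to the same median and -0.53 with log2 values centred on the same median. The E2 genes called higher and lower were 16 and 1 as deposited, 10 and 5 after quantile normalization (18.0% and 25.6% of all genes), 2 and 17 after rescaling (23.4% and 40.1%) and 2 and 16 after centring (14.6% and 40.8%). Of the 16 genes called higher 9 change sign under at least 1 scaling. Ube2a and Ube2d1 were called higher, and Ube2t lower, under all 4 scalings. Many of the changes below are therefore also given relative to the median of all genes as deposited.

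**Figure D4:**
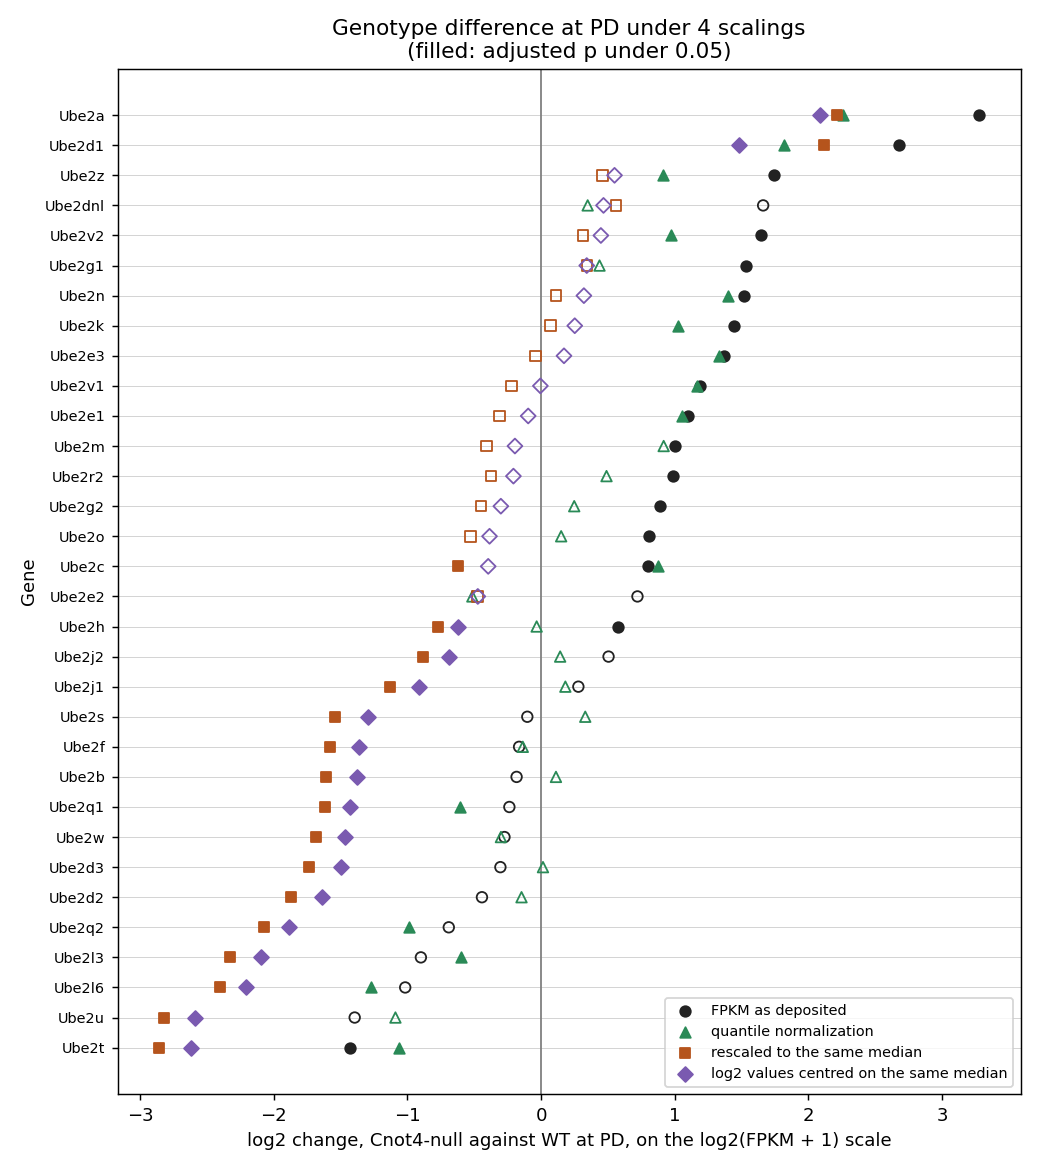
Log2 change of 32 of the 33 tested E2 genes between Cnot4-null and WT at PD (x axis; genes on the y axis) under 4 scalings shown by marker shape, filled where the adjusted p was under 0.05. Ube2a and Ube2d1 lie to the right of 0 and Ube2t to the left with filled markers under all 4, while 9 of the 16 genes called higher as deposited cross 0 under at least 1 other scaling.

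Between the stages in WT, the comparison that follows normal progress through prophase, 5 of the 33 E2 genes were called higher in PD and 18 lower. Of all genes 21.6% were called higher and 36.2% lower, and the median change was -0.68 over the E2 genes and -0.32 over all genes. In 11 E2 genes both PD libraries lay above both LZ libraries and in 21 below, against 31.0% and 50.2% of all genes. The split was 5 and 18 after quantile normalization (25.8% and 30.3% of all genes), 13 and 12 after rescaling (32.5% and 26.9%) and 11 and 11 after centring (33.2% and 23.0%), while the median of all genes went to -0.06, 0.05 and 0.40. Of the 18 genes called lower, 11 were called lower under all 4 scalings (Ube2a, Ube2c, Ube2e1, Ube2e2, Ube2e3, Ube2g1, Ube2g2, Ube2k, Ube2v1, Ube2v2 and Ube2z), and 3 change sign under at least 1. The count called higher was 2 without WT LZ replicate 2 (18.5% of all genes), WT PD replicate 1 (16.4%) or WT PD replicate 2 (16.3%), 9 without Cnot4-null PD replicate 1 and 8 without Cnot4-null PD replicate 2 (24.3% both times). This comparison and that of the genotypes at PD share the WT PD libraries, so a low or high value there enters both.

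In Cnot4-null cells 6 of the 33 E2 genes were called higher in PD than in LZ and 11 lower, against 27.8% and 18.2% of all genes. In 7 E2 genes both PD libraries lay above both LZ libraries and in 17 below, against 40.3% and 31.1% of all genes. The split was 4 and 13 after quantile normalization (18.7% and 31.3% of all genes) and 4 and 20 after rescaling (21.0% and 32.6%) or centring (19.2% and 33.4%), and the median of all genes, 0.19 as deposited, went to -0.30, -0.23 and -0.33. All 11 genes called lower were also called lower under the 3 other scalings, and so were 3 of the 6 called higher (Ube2l6, Ube2m and Ube2u). Without Cnot4-null LZ replicate 1 the count called lower was 3 (9.01% of all genes), and without Cnot4-null LZ replicate 2 it was 5 (12.1%), with 3 called higher (18.2%).

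At LZ few genes were called between the genotypes, which with 2 libraries a group does not show that they were alike. In limma 0 of the 33 E2 genes were called higher and 0 lower, against 0.0692% and 0.0252% of all genes. An unadjusted p under 0.05 was reached by 3 of the 33 E2 genes and by 1013 of all 15899 genes. In 10 E2 genes both Cnot4-null libraries lay above both WT libraries and in 7 below, against 18.2% and 18.0% of all genes. The 3 genes were Ube2c (log2 0.43), Ube2e2 (-1.13) and Ube2w (-0.44). Ube2e2 stood at 32.6 and 27.4 FPKM (WT) against 10.8 and 16.0 (Cnot4-null) at LZ, without overlap, with an adjusted p of 0.753. Ube2w, which ubiquitinates the N-terminus of proteins, stood at 67.8 and 61.9 FPKM (WT) and 51.2 and 44.2 (Cnot4-null) at LZ, and at 47.1 and 50.1 (WT) against 40.4 and 39.6 (Cnot4-null) at PD.

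The interaction of genotype and stage asks whether the genotypes differ by the same amount at both stages. In 9 of the 33 E2 genes (27.3%) the difference of Cnot4-null minus WT was called higher at PD than at LZ and in 1 (3.03%), Ube2t, lower, near the 26.0% and 3.97% of all genes. The split was 3 and 3 after quantile normalization (9.66% and 12.1% of all genes), 1 and 16 after rescaling (13.7% and 32.3%) and 1 and 15 after centring (8.77% and 30.4%). The higher count was 5 without Cnot4-null LZ replicate 1 (16.1% of all genes), 4 without Cnot4-null LZ replicate 2 (13.3%) and 3 without WT PD replicate 1 (10.7%). All 10 calls were lost without WT PD replicate 2, where 10.1% of all genes were still called higher. Ube2t was also not called without WT LZ replicate 1, Cnot4-null LZ replicate 1, Cnot4-null LZ replicate 2 or WT PD replicate 1, and 8 genes were called lower without Cnot4-null PD replicate 1 (13.0% of all genes).

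Ube2a, a RAD6 homolog at chrX:34414353-34424210, stood at 10.2 and 25.0 FPKM (WT) and 32.4 and 18.5 (Cnot4-null) at LZ, and at 1.06 and 1.29 (WT) against 20.8 and 19.4 (Cnot4-null) at PD. The WT PD libraries are low, and the Cnot4-null PD libraries lie within the LZ range. Ube2a was called lower in WT PD than in WT LZ (log2 -2.97, SE 0.43, adjusted p 0.000769; -2.65 relative to all genes). At PD it was called higher in Cnot4-null (log2 3.28, SE 0.43, adjusted p 0.00106; 2.62 relative to all genes), as it was under all 18 alternatives, with log2 values from 2.02 to 3.99. Its autosomal counterpart Ube2b, at chr11:51798999-51814264, stood at 116 and 142 FPKM (WT) and 128 and 136 (Cnot4-null) at LZ, and at 121 and 143 (WT) against 113 and 119 (Cnot4-null) at PD. As deposited Ube2b varied little between the groups and was called in none of these comparisons (at PD log2 -0.18, SE 0.19, adjusted p 0.425). At PD it was called lower after rescaling (log2 -1.61) and centring (-1.38) and had a positive sign after quantile normalization (0.11). Under rescaling and centring Ube2b was also called higher in WT PD than in WT LZ (0.92 and 0.75). It was called lower there in Cnot4-null PD than in Cnot4-null LZ (-0.77 and -0.70) and in the interaction (-1.69 and -1.45). Quantile normalization turned its sign in WT (-0.42) and in the interaction (0.10).

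Ube2t, which loads ubiquitin on the FANCD2 and FANCI proteins at crosslinks in DNA, moved the other way. It lies at chr1:136859142-136870739 and stood at 219 and 272 FPKM (WT) and 296 and 274 (Cnot4-null) at LZ, and at 350 and 357 (WT) against 164 and 104 (Cnot4-null) at PD. WT PD is the highest group and Cnot4-null PD the lowest, with no overlap with any other group. At PD Ube2t was called lower in Cnot4-null (log2 -1.43, SE 0.25, adjusted p 0.00352; -2.09 relative to all genes), as it was under all 18 alternatives, with log2 values from -2.86 to -1.06. It was the only E2 gene called lower at PD as deposited. Its difference between the stages in WT was not called as deposited (log2 0.53, SE 0.25, adjusted p 0.109) but was called higher after rescaling (1.42) and centring (1.25), and in Cnot4-null it was called lower in PD (log2 -1.12, SE 0.25, adjusted p 0.0100).

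Ube2n builds lysine-linked signalling chains in a dimer with Ube2v1 or Ube2v2, which lack the catalytic cysteine. Ube2n stood at 52.1 and 89.5 FPKM (WT) and 54.0 and 69.0 (Cnot4-null) at LZ, and at 22.5 and 27.1 (WT) against 67.7 and 77.2 (Cnot4-null) at PD. Ube2v1 stood at 79.7 and 88.6 FPKM (WT) and 76.3 and 75.9 (Cnot4-null) at LZ, and at 34.2 and 31.2 (WT) against 74.5 and 76.9 (Cnot4-null) at PD. Ube2v2 stood at 38.2 and 40.9 FPKM (WT) and 48.8 and 32.8 (Cnot4-null) at LZ, and at 6.89 and 7.51 (WT) against 27.0 and 22.3 (Cnot4-null) at PD. For all 3 the WT PD libraries are the lowest, and for Ube2n and Ube2v1 the Cnot4-null PD libraries lie within or beside the LZ range. At PD all 3 were called higher in Cnot4-null: Ube2n by log2 1.51 (SE 0.29, adjusted p 0.00476), 0.85 relative to all genes. For Ube2v2 the change was 1.64 (SE 0.24, adjusted p 0.00169), 0.98 relative to all genes, and for Ube2v1 it was 1.19 (SE 0.17, adjusted p 0.00149), 0.53 relative to all genes, with a sign that turned after rescaling (-0.22) and centring (-0.01). The calls of Ube2n and Ube2v2 were lost after rescaling (0.11 and 0.31) and centring (0.32 and 0.45). In WT the fall from LZ to PD was -1.43 for Ube2n (adjusted p 0.00381), -1.34 for Ube2v1 (adjusted p 0.000405) and -2.31 for Ube2v2 (adjusted p 0.000173), and that of Ube2n was not called after rescaling (-0.57) or centring (-0.72).

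**Figure D5:**
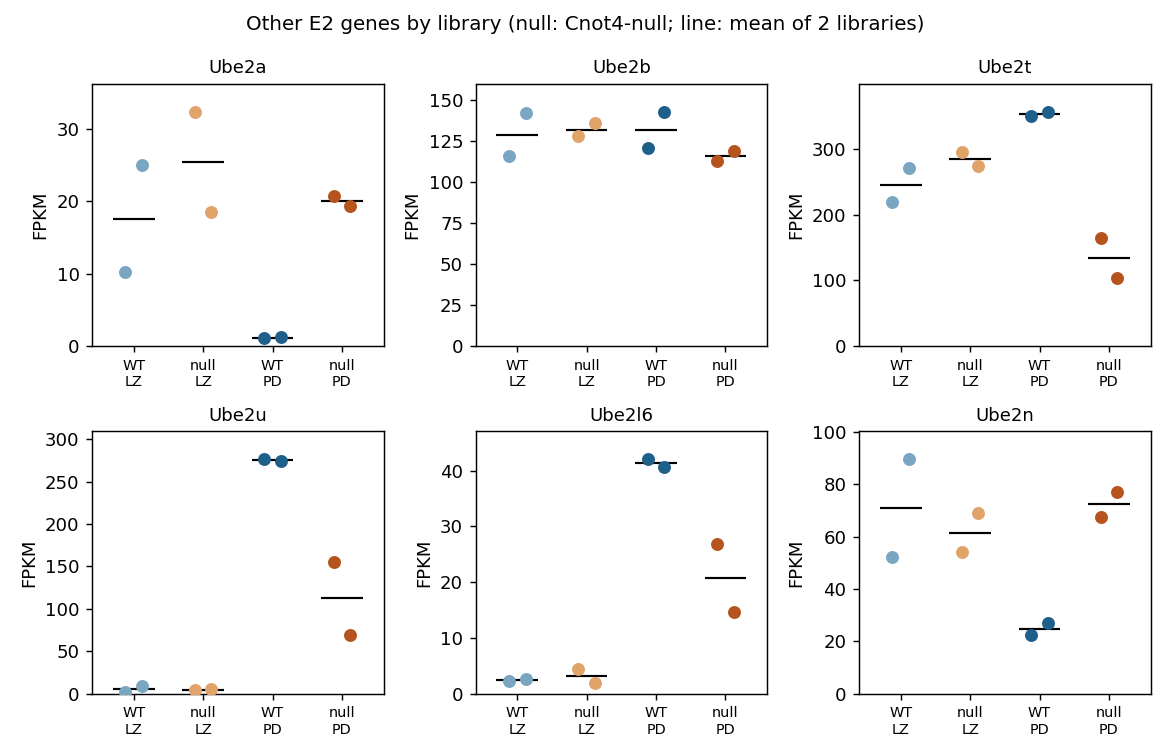
FPKM (y axis, from 0, scaled per gene) of Ube2a, Ube2b, Ube2t, Ube2u, Ube2l6 and Ube2n in the 4 groups (x axis), with 1 point per library and a line at the mean of 2. Ube2a is at 1.06 and 1.29 (WT) against 20.8 and 19.4 (Cnot4-null) at PD, Ube2t at 350 and 357 against 164 and 104, and Ube2b between 113 and 143 in all libraries.

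Ube2c, which starts chains on the anaphase-promoting complex, stood at 237 and 253 FPKM (WT) and 327 and 331 (Cnot4-null) at LZ, and at 51.4 and 44.4 (WT) against 88.3 and 79.5 (Cnot4-null) at PD. Both PD groups are below both LZ groups, and no groups overlap. Ube2c was called lower in WT PD than in WT LZ (log2 -2.33, SE 0.17, adjusted p 4.75e-05; -2.02 relative to all genes). At PD it was called higher in Cnot4-null (log2 0.80, SE 0.17, adjusted p 0.00835; 0.14 relative to all genes), but not without WT PD replicate 2 (0.69), and its sign turned after rescaling (-0.62, called lower) and centring (-0.40). Ube2s, which extends those chains, stood at 266 and 298 FPKM (WT) and 311 and 301 (Cnot4-null) at LZ, and at 349 and 392 (WT) against 478 and 249 (Cnot4-null) at PD. The Cnot4-null PD libraries lie on either side of all other values, and Ube2s was not called at PD (log2 -0.10, SE 0.30, adjusted p 0.787; the sign turned after quantile normalization), but it was called lower after rescaling (-1.54) and centring (-1.30).

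Ube2g1, which extends chains for cullin-RING ligases, stood at 20.4 and 33.7 FPKM (WT) and 27.6 and 30.3 (Cnot4-null) at LZ, and at 2.54 and 3.10 (WT) against 7.30 and 13.7 (Cnot4-null) at PD. Ube2r2, of the CDC34 type that works with SCF ligases, stood at 9.26 and 5.07 FPKM (WT) and 10.6 and 9.33 (Cnot4-null) at LZ, and at 13.6 and 11.3 (WT) against 25.8 and 25.4 (Cnot4-null) at PD. Ube2g1 is lowest in WT PD, and Ube2r2 is highest in Cnot4-null PD. At PD Ube2g1 was called higher in Cnot4-null (log2 1.54, SE 0.35, adjusted p 0.00941; 0.87 relative to all genes), but not without WT PD replicate 1 (1.43) or replicate 2 (1.64) nor under any of the 3 other scalings. Ube2r2 was called higher too (log2 0.99, SE 0.29, adjusted p 0.0237; 0.32 relative to all genes), but not without WT PD replicate 1 (1.11), WT PD replicate 2 (0.86), Cnot4-null PD replicate 1 (0.97) or Cnot4-null PD replicate 2 (1.00), after quantile normalization (0.49) or without a filter, and its sign turned after rescaling (-0.38) and centring (-0.21). In WT Ube2g1 was called lower in PD than in LZ (log2 -2.84, SE 0.35, adjusted p 0.000341).

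Ube2k, an E2 of degradation at the endoplasmic reticulum which makes chains that mark proteins for the proteasome, stood at 48.9 and 52.7 FPKM (WT) and 64.8 and 53.7 (Cnot4-null) at LZ, and at 13.8 and 12.5 (WT) against 39.7 and 35.4 (Cnot4-null) at PD. Ube2g2 stood at 30.7 and 30.3 FPKM (WT) and 20.4 and 26.5 (Cnot4-null) at LZ, and at 9.15 and 10.2 (WT) against 20.1 and 17.5 (Cnot4-null) at PD. For both, WT PD is the lowest group and Cnot4-null PD lies between it and LZ. At PD Ube2k was called higher in Cnot4-null (log2 1.45, SE 0.19, adjusted p 0.00110; 0.78 relative to all genes), but not after rescaling (0.07) or centring (0.25). Ube2g2 was called higher by 0.89 (SE 0.21, adjusted p 0.0109; 0.23 relative to all genes), but not without WT PD replicate 1 (0.82) or replicate 2 (0.96) or after quantile normalization (0.25), and its sign turned after rescaling (-0.45) and centring (-0.30). In WT the fall from LZ to PD was -1.87 for Ube2k (SE 0.19, adjusted p 0.000156) and -1.57 for Ube2g2 (SE 0.21, adjusted p 0.000534). Ube2j2, an E2 anchored in the membrane, stood at 57.4 and 45.4 FPKM (WT) and 66.3 and 52.8 (Cnot4-null) at LZ, and at 21.4 and 18.9 (WT) against 33.2 and 25.2 (Cnot4-null) at PD. It was called lower in PD than in LZ in both genotypes as deposited, by -1.30 in WT (adjusted p 0.00222) and -1.01 in Cnot4-null (adjusted p 0.0113), and the fall in WT was not called after rescaling (-0.45) or centring (-0.59).

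In the Ube2e group, E2 enzymes with an N-terminal extension, Ube2e1 stood at 137 and 174 FPKM (WT) and 169 and 178 (Cnot4-null) at LZ, and at 24.9 and 41.1 (WT) against 62.2 and 78.0 (Cnot4-null) at PD. Ube2e3 stood at 189 and 189 FPKM (WT) and 212 and 195 (Cnot4-null) at LZ, and at 27.2 and 33.2 (WT) against 67.6 and 92.4 (Cnot4-null) at PD. Both genes are lower in PD than in LZ in either genotype, and the Cnot4-null PD libraries lie between WT PD and LZ. At PD Ube2e3 was called higher in Cnot4-null (log2 1.37, SE 0.21, adjusted p 0.00213; 0.70 relative to all genes), with a sign that turned after rescaling (-0.04) and no call after centring (0.17). Ube2e1 was called higher by 1.10 (SE 0.27, adjusted p 0.0137; 0.43 relative to all genes), but not without WT PD replicate 1 (0.75) or Cnot4-null PD replicate 2 (0.94) or with the compared libraries alone, and its sign turned after rescaling (-0.31) and centring (-0.10). From LZ to PD in WT the changes were -2.23 for Ube2e1 (SE 0.27, adjusted p 0.000350), -2.61 for Ube2e3 (SE 0.21, adjusted p 6.42e-05) and -2.70 for Ube2e2 (SE 0.44, adjusted p 0.00145). Ube2e2 stood at 4.16 and 3.41 FPKM (WT) against 11.7 and 3.88 (Cnot4-null) at PD, where the genotypes overlap.

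Ube2l6, which conjugates the interferon-induced ISG15, stood at 2.24 and 2.61 FPKM (WT) and 4.36 and 1.99 (Cnot4-null) at LZ, and at 42.0 and 40.7 (WT) against 26.9 and 14.7 (Cnot4-null) at PD. It is low in LZ and high in PD in both genotypes. The rise in WT (log2 3.63, SE 0.37, adjusted p 0.000157; 3.95 relative to all genes) and that in Cnot4-null (log2 2.39, SE 0.37, adjusted p 0.00239) were called under all 4 scalings, and the genotype difference at PD was not called as deposited (log2 -1.02, SE 0.37, adjusted p 0.0516). It was called lower after quantile normalization (-1.27), rescaling (-2.41) and centring (-2.21). Ube2z, which carries FAT10 and ubiquitin from the E1 Uba6, stood at 37.4 and 28.0 FPKM (WT) and 41.0 and 37.2 (Cnot4-null) at LZ, and at 6.77 and 3.61 (WT) against 21.3 and 17.0 (Cnot4-null) at PD. WT PD is the lowest group and Cnot4-null PD lies between it and LZ. Ube2z was called lower in PD in WT (log2 -2.48, SE 0.30, adjusted p 0.000327) and higher in Cnot4-null at PD (log2 1.74, SE 0.30, adjusted p 0.00319; 1.08 relative to all genes), though not after rescaling (0.46) or centring (0.55).

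Ube2m and Ube2f both conjugate NEDD8. Ube2m stood at 15.2 and 18.4 FPKM (WT) and 13.2 and 19.9 (Cnot4-null) at LZ, and at 28.4 and 31.6 (WT) against 54.7 and 67.8 (Cnot4-null) at PD. Ube2f stood at 89.8 and 104 FPKM (WT) and 85.5 and 81.6 (Cnot4-null) at LZ, and at 54.6 and 60.2 (WT) against 55.3 and 47.1 (Cnot4-null) at PD. Ube2m is higher in PD than in LZ and Ube2f lower. At PD Ube2m was called higher in Cnot4-null (log2 1.00, SE 0.25, adjusted p 0.0141; 0.34 relative to all genes), but not without WT PD replicate 1 (0.93), WT PD replicate 2 (1.07) or Cnot4-null PD replicate 2 (0.85) or after quantile normalization (0.92), and its sign turned after rescaling (-0.41) and centring (-0.20). Its rise in WT (log2 0.80, SE 0.25, adjusted p 0.0272) was lost without WT LZ replicate 1 (0.67), WT LZ replicate 2 (0.93), WT PD replicate 1 (0.87) or WT PD replicate 2 (0.73), after quantile normalization (0.89) and without a filter. The fall of Ube2f in WT (log2 -0.74, SE 0.18, adjusted p 0.0101) was lost without WT LZ replicate 2 (-0.64) or WT PD replicate 1 (-0.67) and after centring (-0.03), and its sign turned after rescaling (0.13).

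Ube2u, a little-studied member at chr4:100151465-100222752, stood at 2.25 and 9.41 FPKM (WT) and 4.69 and 5.16 (Cnot4-null) at LZ, and at 276 and 274 (WT) against 155 and 69.7 (Cnot4-null) at PD. The PD libraries are high in both genotypes, and both Cnot4-null PD values are below both WT PD values. The rise from LZ to PD in WT was the largest of any E2 gene (log2 5.57, SE 0.56, adjusted p 0.000149; 5.89 relative to all genes) and was called under all 4 scalings, as was that in Cnot4-null (log2 4.15, SE 0.56, adjusted p 0.00144). Without WT LZ replicate 1 the rise in WT was 4.73, and without WT LZ replicate 2 it was 6.41. The genotype difference at PD was not called as deposited (log2 -1.39, SE 0.56, adjusted p 0.0704; -2.06 relative to all genes), but was called lower after rescaling (-2.82) and centring (-2.59). Ube2l3, the partner of HECT and RBR ligases such as Parkin, stood at 85.4 and 96.4 FPKM (WT) and 112 and 96.4 (Cnot4-null) at LZ, and at 194 and 182 (WT) against 145 and 69.0 (Cnot4-null) at PD. WT PD is its highest group, and the rise in WT (log2 1.04, SE 0.33, adjusted p 0.0290) was not called after quantile normalization (0.54), without a filter, nor without WT LZ replicate 1 (0.95), WT LZ replicate 2 (1.13), Cnot4-null LZ replicate 1 (1.04), Cnot4-null LZ replicate 2 (1.04), WT PD replicate 1 (1.00) or WT PD replicate 2 (1.08).

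Ube2q2 stood at 18.2 and 14.4 FPKM (WT) and 23.0 and 16.3 (Cnot4-null) at LZ, and at 31.2 and 33.2 (WT) against 23.2 and 16.4 (Cnot4-null) at PD. It was called higher in PD in WT under all 4 scalings (as deposited log2 0.95, SE 0.26, adjusted p 0.0163), but not without WT LZ replicate 2 (0.79), WT PD replicate 1 (0.99) or WT PD replicate 2 (0.91). At PD neither Ube2l3 (log2 -0.90, SE 0.33, adjusted p 0.0531) nor Ube2q2 (log2 -0.69, SE 0.26, adjusted p 0.0588) was called between the genotypes as deposited, but both were called lower after quantile normalization (-0.60 and -0.99), rescaling (-2.33 and -2.08) and centring (-2.09 and -1.88). Ube2o, an E2 with E3 activity, stood at 25.2 and 15.1 FPKM (WT) and 15.0 and 16.8 (Cnot4-null) at LZ, and at 9.35 and 9.05 (WT) against 15.1 and 18.8 (Cnot4-null) at PD. Ube2h, the E2 of the CTLH ligase complex, stood at 19.7 and 19.1 FPKM (WT) and 19.5 and 18.7 (Cnot4-null) at LZ, and at 11.4 and 12.2 (WT) against 20.2 and 16.1 (Cnot4-null) at PD. For Ube2o and Ube2h WT PD is the lowest group and the other 3 groups lie close together. Both were called higher in Cnot4-null at PD, Ube2o by log2 0.81 (SE 0.27, adjusted p 0.0414; 0.15 relative to all genes) and Ube2h by 0.58 (SE 0.20, adjusted p 0.0445; -0.09 relative to all genes), and both signs turned after rescaling (-0.53 and -0.77) and centring (-0.39 and -0.62), where Ube2h was called lower, and that of Ube2h also turned after quantile normalization (-0.03). The call of Ube2o was lost without Cnot4-null LZ replicate 1 (0.81), Cnot4-null LZ replicate 2 (0.81), WT PD replicate 1 (0.83), WT PD replicate 2 (0.79), Cnot4-null PD replicate 1 (0.95) or Cnot4-null PD replicate 2 (0.66), after quantile normalization (0.15), with a pseudocount of 5 (0.62), with a replicate block and without a filter. That of Ube2h was lost without any 1 of the 4 LZ libraries (0.58 each), WT PD replicate 1 (0.53) or WT PD replicate 2 (0.62), with no trend, with a replicate block and with the compared libraries alone.

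Of the E2 genes, Ube2a and Ube2dnl lie on the X chromosome, where 482 of the 648 tested genes (74.4%) were called higher in Cnot4-null PD, against 40.5% of autosomal genes called higher. In WT 62.2% of the X-linked genes were called lower in PD than in LZ, against 36.1% of autosomal genes. Of the 648 X-linked genes 264 were called higher at PD after quantile normalization, beside 18.0% of all genes. The X-linked count was 401 after rescaling (23.4% of all genes) and 272 after centring (14.6% of all genes).

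Some E2 transcripts hold sequence that occurs more than once, and the authors kept uniquely mapped reads. Of all stretches of 50 bases in the transcript, 94.7% of those of Ube2s, 94.3% of Ube2v1, 58.9% of Ube2d2 and 31.3% of Ube2d3 also occur elsewhere in the mm9 genome or in transcripts of other genes. For 18 of the 34 genes the share is under 10%, and for 11 of them, Ube2a, Ube2b, Ube2d1 and Ube2t included, it is 0%. Of the 16 genes called higher in Cnot4-null PD 9 have a share under 10%.

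The other genes of the ubiquitin pathway at PD were counted in the same fit, beside the 41.6% and 11.5% of all genes called higher and lower in Cnot4-null as deposited. Those shares of all genes differ under the alternatives, and most are given with the E2 counts at PD above. The shares called lower without WT PD replicate 1 or replicate 2, not given there, were also below the 11.5% as deposited. Of 10 E1 genes 4 were called higher and 1 lower, against 2 and 1 after quantile normalization, 2 and 6 after rescaling and 2 and 5 after centring. The E1 count called lower was 0 without WT PD replicate 1 or replicate 2 and 3 without Cnot4-null PD replicate 1. Of 48 E3 partner genes 17 were called higher and 9 lower. After quantile normalization these counts were 9 and 15, after rescaling 7 and 32 and after centring 6 and 32. The E3 partners were 11 higher and 3 lower without WT PD replicate 1, 11 and 2 without WT PD replicate 2, and 14 lower without Cnot4-null PD replicate 1. With the compared libraries alone 4 E3 partners and 0 E1 genes were lower (5.67% of all genes).

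Uba1, the main E1 of ubiquitin, which is X-linked, stood at 59.9 and 49.0 FPKM (WT) and 49.3 and 54.8 (Cnot4-null) at LZ, and at 1.30 and 0.595 (WT) against 30.0 and 31.4 (Cnot4-null) at PD. Like Ube2a, which it loads, Uba1 is low only in WT PD, and it was called higher in Cnot4-null at PD (log2 4.05, SE 0.24, adjusted p 0.000108; 3.39 relative to all genes). Ubb, a polyubiquitin gene, stood at 612 and 635 FPKM (WT) and 771 and 657 (Cnot4-null) at LZ, and at 2211 and 1962 (WT) against 1536 and 750 (Cnot4-null) at PD, highest in WT PD. It was called lower in Cnot4-null at PD (log2 -0.96, SE 0.34, adjusted p 0.0464), but not without WT LZ replicate 1 or replicate 2 or Cnot4-null LZ replicate 1 or replicate 2 (-0.96 each), WT PD replicate 1 (-0.87), WT PD replicate 2 (-1.04) or Cnot4-null PD replicate 2 (-0.44), without a filter, with a pseudocount of 5 (-0.95), with no trend or with the compared libraries alone.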

How the data were processed

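RNA was sequenced in 8 libraries, 2 for each of 4 groups taken from the labels. The deposited files hold FPKM per gene symbol, which the authors made with TopHat2 2.1.1 and Cufflinks 2.2.1 on mm9, per the submitters' processing notes, from uniquely mapped reads trimmed to 50 bases. Read counts were not used here, so no depth or counting interval is given. Genes above 1 FPKM in at least 1 library were tested on log2(FPKM + 1). The fit used limma 3.58.1 under R 4.3.3, by lmFit and contrasts.fit and then eBayes with trend, with 4 residual degrees of freedom. Each of 5 contrasts was tested over all genes, two-sided, with its own Benjamini-Hochberg adjustment. SE is the moderated standard error of the log2 difference, with n = 2 libraries a group. Python 3.11.15 with numpy 2.4.6, pandas 2.3.3, numba 0.67.0, Biopython 1.88 and matplotlib 3.10.9 made the counts, sequence comparisons and plots. Sequences, loci and identities come from GENCODE vM1 on NCBIM37 (mm9), in which all 34 E2 symbols were matched.

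The members and all lists (7 roles, 5 pathway lists and 9 marker lists) were chosen with earlier results of these data known. Genes were named by a rule: every Ube2d gene, up to 4 called genes per role by the absolute change at PD, the 5 most abundant, any called at LZ, any below the filter, and up to 3 called genes per pathway list. Ube2b, Ube2h, Ube2v1, Ube2w, 1700013N18Rik and 4930524E20Rik fall outside it and were named after their values were seen. Some genes that the rule takes in are counted but not reported here. The alternatives were no filter or a mean FPKM of at least 5, pseudocounts of 0.1 and 5, quantile normalization, rescaling to the same median, no trend, the compared libraries alone, a replicate block and leaving out each library. Centring log2 values, and adding 1700013N18Rik and 4930524E20Rik to the Ube2d share, were chosen after seeing the data. The fit was run on simulated data in which few genes changed, in a single group. Many genes differ at PD in the real data, so that run does not check the calls there.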

Additional observations from a re-analysis of the deposited data

Results flagged for a closer look

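For 10 E2 genes the difference between the genotypes was not the same at PD as at LZ, by the test of the difference itself, the interaction of genotype and stage in limma. Of the 33 tested, 9 (27.3%) were called with a higher value at PD and 1 (3.03%) with a lower value, near the 26.0% and 3.97% of all genes, so the counts lie at the background. The difference between the genotype effects (PD minus LZ, log2) was 3.22 for Ube2d1 (SE 0.60, adjusted p 0.00939) and 2.70 for Ube2a (SE 0.61, adjusted p 0.0174). It was 1.67 for Ube2n, 1.62 for Ube2v2, 1.48 for Ube2z, 1.33 for Ube2v1, 1.27 for Ube2g2, 1.26 for Ube2e3 and 1.23 for Ube2k, and -1.65 for Ube2t (adjusted p 0.0150). The median over all genes was 0.64. Under the 3 other scalings the median of all genes was -0.13, -0.30 and -0.59. None of the 9 was called higher under all 4 scalings, 4 of them change sign under at least 1, and Ube2t was called lower under all 4. All 10 calls were lost without WT PD replicate 2, and that of Ube2t also without WT LZ replicate 1 (-1.49), Cnot4-null LZ replicate 1 (-1.59), Cnot4-null LZ replicate 2 (-1.71) or WT PD replicate 1 (-1.66). The call of Ube2d1 held in 14 of 16 alternatives. Of 17 alternatives the call held in 14 for Ube2v1, 13 for Ube2v2, and 12 each for Ube2k and Ube2t. It held in 9 for Ube2g2, 8 each for Ube2a and Ube2e3, 7 for Ube2n and 5 for Ube2z. The part of the markers of other cells, which are higher in the Cnot4-null PD libraries, was not tested.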

How the results depend on the processing

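The E2 counts and most results of named genes were computed again under each alternative. For Ube2b, Ube2s and Ube2w, for results of E2 genes outside the Ube2d family that were not called as deposited, and for stage changes in Cnot4-null outside that family, only the 3 other scalings were compared. The other results, 102 in all, were those of single genes and counts such as those of the pathway lists and X-linked genes. Of 1571 alternative values for them, 1234 kept their direction and their side of the threshold (or stayed within the spread). Of the rest 197 lost the call, 14 gained it, 26 changed sign and 100 moved. Of 190 values for 14 counts of E2 genes and Ube2d shares 132 stayed within their margin and 58 moved. In the order genotypes at PD, stages in WT, stages in Cnot4-null and interaction, the E2 counts that moved are given below. The cause was not tested.

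Under quantile normalization the PD counts were 10 higher and 5 lower and the interaction counts 3 and 3. After rescaling to the same median they were 2 and 17 at PD, 13 higher in WT, 20 lower in Cnot4-null and 1 and 16 in the interaction. After centring, chosen after seeing the data, they were 2 and 16 at PD, 11 and 11 in WT, 20 lower in Cnot4-null and 1 and 15 in the interaction. Without a filter 3 were lower at PD (5.53% of all genes), 3 higher in WT (14.2%) and 2 lower in the interaction (1.69%). With a mean FPKM of at least 5, 2 were lower at PD (16.5% of all genes), and with a pseudocount of 5, 3 were (12.8%). With the compared libraries alone 4 were lower in Cnot4-null (7.94% of all genes).

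Leaving out 1 library at a time, with the lone library of a group assumed to vary like the other groups, gave 9 to 15 higher and 1 to 7 lower at PD, 2 to 9 higher and 13 to 20 lower in WT, 3 to 9 higher and 3 to 13 lower in Cnot4-null, and 0 to 11 higher and 0 to 8 lower in the interaction. Shares of all genes called differ between these fits too, and only some of them are given with the comparisons above. These ranges are therefore not read as results about the E2 genes. With a replicate block in the fit the PD counts were 14 and 4 (40.6% and 11.5% of all genes) and the interaction counts 11 and 1 (23.7% and 3.7%). The replicate numbers are not known to be pairs, and deviations of libraries with the same number correlated across genes at -0.0651 to 0.194.

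The Ube2d share of the summed E2 FPKM was 15.3% in WT LZ and 13.2% in Cnot4-null PD over genes with a mean FPKM of at least 5. Without the largest E2 gene it was 17.2% (WT) and 17.2% (Cnot4-null) at LZ, and 18.2% (WT) and 16.8% (Cnot4-null) at PD, where the Cnot4-null libraries were at 17.9% and 15.8% and overlapped the LZ libraries. With 1700013N18Rik and 4930524E20Rik it was 15.7% in WT LZ, 32.7% in WT PD and 20.2% in Cnot4-null PD.

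Among the results computed under every alternative, signs turned between the genotypes at PD after rescaling for Ube2c (-0.62), Ube2e1 (-0.31), Ube2e3 (-0.0435), Ube2g2 (-0.45), Ube2h (-0.77), Ube2m (-0.41), Ube2o (-0.53), Ube2r2 (-0.38), Ube2v1 (-0.22) and Sumo3 (-0.58). They turned after centring for Ube2c (-0.40), Ube2e1 (-0.10), Ube2g2 (-0.30), Ube2h (-0.62), Ube2m (-0.20), Ube2o (-0.39), Ube2r2 (-0.21), Ube2v1 (-0.0054) and Sumo3 (-0.38), and under quantile normalization for Ube2d3 (0.014) and Ube2h (-0.0333). Between the stages in WT they turned for Ube2f (0.13 after rescaling), and in the interaction after rescaling for Ube2e3 (-0.19), Ube2g2 (-0.11), Ube2k (-0.18) and Ube2v1 (-0.12).

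With 2 libraries a group and no read counts, low levels such as those of Ube2d1 and Ube2dnl carry a counting error that was not estimated, and the PD directions of many E2 genes, 9 of the 16 called higher included, depend on the scaling of the libraries.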
